A study of Mus musculus with 10 samples.

Results

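Gene expression in stimulated CD4 cells from the spleen was compared between the NOD and B10 mouse strains, gene by gene. Both groups are those the sample titles mark as T1, with 2 arrays in each strain. The differences come from these 4 of the 10 arrays of the series, and each gene's spread was estimated from all 10. All probe sets of the deposited table that the platform annotation ties to exactly 1 gene symbol were taken, and the probe set with the highest mean stood for each symbol. This gave 19938 genes, and no measured difference entered that choice. The mice were females of 8 weeks. The labels give the genotypes as NODk for the NOD strain and B10Br for the B10 strain. Spleen cells were enriched for CD4 on magnetic beads, with no further sort of T cell subsets, and were stimulated for 4 hours with phorbol myristate acetate (PMA) at 10 ng/ml and ionomycin at 1 uM. The unstimulated groups (T0, 3 arrays per strain) are called basal, although the treatment text can be read as 4 hours of culture without the drugs. The samples are labelled biological replicates without naming the animal, so p-values measure the spread between these samples. The stimulated arrays are replicates 2 and 3 in both strains, and array values below are given in that order.

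Ordinary NOD mice are an inbred strain known for spontaneous autoimmune diabetes, a disease driven by T cells. B10 mice are a standard strain without it. Diabetes in the NODk mice used here was not examined, so the comparison is one of strains and not of disease. PMA activates protein kinase C and ionomycin lets calcium into the cell. Together they bypass the T cell receptor and drive the transcription factors AP-1, NF-kB and NFAT, which switch on cytokine genes within hours. CD4 T cells that have met antigen before make restricted sets of cytokines, such as interferon gamma in type 1 cells, Il4, Il5 and Il13 in type 2 cells, and Il17a in Th17 cells.

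Values are log2 intensities, so a difference of 1 is a 2-fold difference, and differences are NOD minus B10 with the standard error of the limma model after the ± sign. A gene was called when its adjusted p (Benjamini-Hochberg over all 19938 genes) was under 0.05. Fits that leave out a stimulated array hold only 1 array of that strain at T1. The gap between its 2 arrays then does not enter the spread, so calls in those fits do not reflect it. Pearson's r over all genes was 0.989 between the B10 arrays, 0.985 between the NOD arrays, and 0.973 to 0.984 between strains. The mean level of 10 T cell markers, among them Cd3e and Cd4, lay between 9.53 and 9.81 on the 4 arrays, and 0 of the 10 differed by limma's adjusted p (Cd3e had an adjusted p of 0.38 and Cd4 of 0.13, and at most 2 of the 10 were called in any alternative analysis, both lower). The 2 stimulated B10 arrays stood apart from each other in red cell genes. The mean of 8 erythroid markers was 7.08 on B10 replicate 2 and 9.12 on B10 replicate 3, against 10.03 and 10.56 in NOD.

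In all, 718 genes (3.6% of those tested) differed between strains after stimulation. NOD cells had higher levels of 353 genes (1.77%) and lower levels of 365 (1.83%). At least a 2-fold difference was seen for 207 called genes (1.04%), 135 of them higher and 72 lower in NOD, and a 4-fold difference for 13 higher and 12 lower genes. The 2 NOD arrays lay outside the range of the 2 B10 arrays for all 718 called genes, as they did for 41.8% of all genes tested. The median difference over all genes was 0.01. The gene lists below were chosen with earlier results of these data known, so their counts describe the lists and are not tests of them. The count rested on single arrays: it was 184 without B10 replicate 2 and 270 without NOD replicate 3, and 128 when only the 4 stimulated arrays entered the fit. The count with at least a 2-fold difference was 91 without B10 replicate 2, 112 without NOD replicate 3 and 357 without B10 replicate 3. With every array shifted to the same 75th percentile, 59.6% of the calls were higher in NOD, against 49.2% in the fit reported here.

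**Figure D1:**
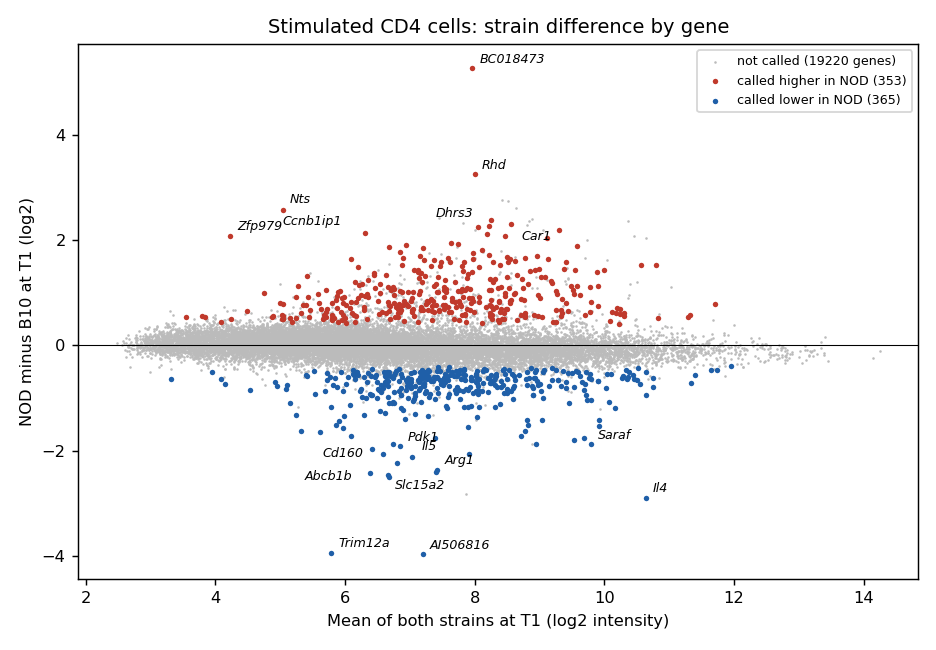
Each point is a gene, with its mean log2 intensity over both strains at T1 on the x axis and the NOD minus B10 difference (log2) on the y axis. Red points are the 353 genes called higher in NOD, blue points the 365 called lower, and grey points the genes not called. Among the labelled genes Il4 lies at -2.89 and Trim12a at -3.93.

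Type 2 cytokine genes were lower in stimulated NOD cells. Il4, the cytokine that starts and maintains type 2 responses, read 9.02 and 9.36 on the NOD arrays and 12.44 and 11.72 on the B10 arrays. The groups did not overlap, and the difference of -2.89 ± 0.23 (7.41-fold, adjusted p = 3.42e-05) held its call in all 21 alternative analyses, between -3.25 and -2.53. Il13, which acts on epithelium and mucus, read 8.60 and 9.02 in NOD and 10.94 and 10.20 in B10 (-1.76 ± 0.22, 3.39-fold, adjusted p = 0.000954). Its call also held in all 21 alternatives. Il5, the growth factor of eosinophils, read 5.98 on both NOD arrays, against 8.99 and 7.21 in B10. The B10 arrays were thus farther apart for Il5 than for Il4, and the difference of -2.12 ± 0.37 (4.35-fold, adjusted p = 0.0092) lost its call without NOD replicate 3 (-2.12, adjusted p = 0.0635). It was -1.23 without B10 replicate 2 and -3.01 without B10 replicate 3, fits in which the gap between the B10 arrays does not enter the spread. For all 3 genes B10 replicate 2 was the higher of the B10 arrays.

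Il4, Il5 and Il13 lie close together on chromosome 11, and Csf2 and Il3 lie on the same chromosome. Csf2 encodes GM-CSF, a growth factor of granulocytes and macrophages. It read 8.25 and 7.87 in NOD and 9.79 and 9.37 in B10 (-1.52 ± 0.15, 2.86-fold, adjusted p = 0.000239), a call that held in all 21 alternatives. The 150 bases before the start site of these 4 genes are shown because stimulation with ionomycin acts on such promoters through NFAT. Capitals mark the NFAT core GGAAA on either strand (read as TTTCC on the other). Sequences are from RefSeq (GRCm38.p6), written 5' to 3' in the direction of the gene. The windows are chr11:53618666-53618815 for Il4, chr11:53634703-53634852 for Il13 and chr11:54249900-54250049 for Csf2, all on the minus strand, and chr11:53720644-53720793 for Il5 on the plus strand. For Il4 the table holds 2 start sites, and the one farther upstream is shown.
Il4: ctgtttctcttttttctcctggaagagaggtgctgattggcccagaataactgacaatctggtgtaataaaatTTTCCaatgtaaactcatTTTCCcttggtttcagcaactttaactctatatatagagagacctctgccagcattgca
Il13: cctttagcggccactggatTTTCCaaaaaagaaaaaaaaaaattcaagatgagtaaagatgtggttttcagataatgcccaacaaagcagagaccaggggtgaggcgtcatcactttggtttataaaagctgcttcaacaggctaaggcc
Il5: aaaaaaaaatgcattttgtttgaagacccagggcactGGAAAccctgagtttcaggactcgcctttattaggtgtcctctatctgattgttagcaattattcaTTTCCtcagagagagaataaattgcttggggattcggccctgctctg
Csf2: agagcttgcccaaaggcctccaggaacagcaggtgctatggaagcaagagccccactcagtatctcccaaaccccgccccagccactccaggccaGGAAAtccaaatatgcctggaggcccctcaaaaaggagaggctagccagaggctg
The core occurs 2 times in the Il4 window, 2 times in that of Il5, and 1 time each for Il13 and Csf2. Of all 32851 promoter windows of this length, 37.6% hold at least 1 such core and 9.34% at least 2. The AP-1 site TGANTCA, searched on both strands, is in none of the 4 windows and in 4.24% of all windows. These matches describe the letters in the window alone.

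Most other cytokine genes were not called. Of 21 measured effector cytokines, 6 were called lower in NOD, 0 higher, and 15 not called. Of all genes, 1.83% were called lower and 1.77% higher. The median difference of the list was -0.35, against 0.01 over all genes. Beside Il4, Il5, Il13 and Csf2, the lower genes were Il3 and Il17a. Il3, a growth factor of blood cell precursors, read 9.40 and 9.09 in NOD and 10.54 and 9.81 in B10 (-0.93 ± 0.19, adjusted p = 0.0179), and lost its call without B10 replicate 2 (-0.57) or NOD replicate 3 (-0.78). Il17a, the signature cytokine of Th17 cells, read 9.33 and 9.72 in NOD and 10.47 and 10.74 in B10 (-1.08 ± 0.20, adjusted p = 0.0107), and lost its call without B10 replicate 3 (-0.94) or NOD replicate 2 (-0.89). Its close relative Il17f read 10.31 and 10.74 in NOD and 10.77 and 10.87 in B10, with an adjusted p of 0.363.

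The T cell growth factor Il2 read 11.60 and 11.71 in NOD and 12.19 and 11.92 in B10. The arrays did not overlap, but the difference of -0.40 ± 0.14 was not called (adjusted p = 0.155). Ifng, the type 1 cytokine, read 11.52 and 11.63 in NOD and 12.52 and 11.79 in B10 (-0.58 ± 0.28, adjusted p = 0.327). Il10 and Il21 overlapped between strains. Il10, an anti-inflammatory cytokine, read 10.17 and 10.72 in NOD and 11.24 and 9.70 in B10. Il21, which helps B cells, read 8.88 and 9.16 in NOD and 10.68 and 8.65 in B10. For Tnf the difference was -0.35 (adjusted p = 0.133), and for Lif it was 0.13 (adjusted p = 0.625).

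The count of lower cytokine genes ranged from 4 to 6 over the alternatives, and was 4 without NOD replicate 3 and 4 with only the 4 stimulated arrays. In bulk RNA, fewer cells that make a transcript and less of it per cell cannot be told apart. Basophils and mast cells also make Il4 and Il13. Of 5 of their markers 0 were called, with mean levels of 4.37 and 4.49 in B10 and 4.41 and 4.40 in NOD. These levels were low, and the part of such cells in the cytokine differences was not tested. Regulators of helper lineages were called in neither direction (0 of 20, median -0.09). Among them were Gata3, the type 2 master regulator (-0.39, adjusted p = 0.093), Tbx21, the type 1 regulator (-0.07, adjusted p = 0.91), Foxp3 (-0.09, adjusted p = 0.83) and Maf, an activator of Il4 (-0.12, adjusted p = 0.85).

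**Figure D2:**
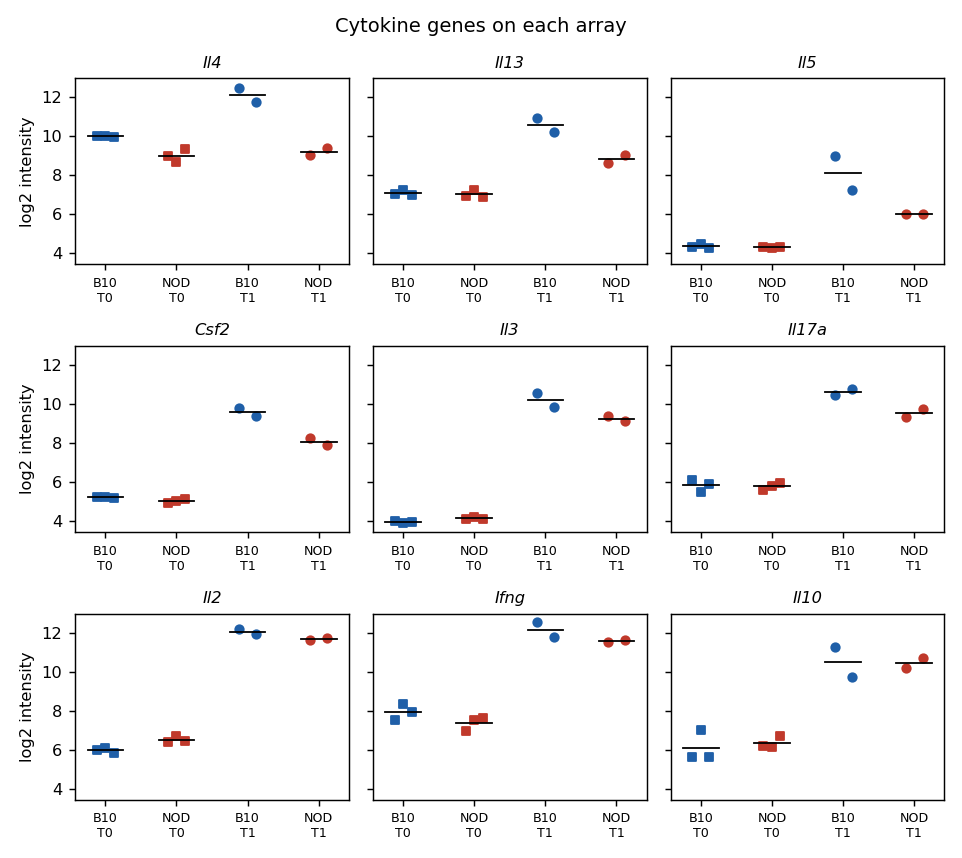
The log2 intensity of 9 cytokine genes is shown on each array, with squares for T0, circles for T1, blue for B10, red for NOD and a line at each group mean. Il4, Il13, Il5, Csf2, Il3 and Il17a were called lower in NOD at T1, and Il2, Ifng and Il10 were not called.

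The enzyme gene Arg1, the peptide precursor Penk and the calcium regulator Saraf were lower in NOD as well. Arg1, arginase 1, an enzyme that uses up arginine, read 6.33 and 6.15 in NOD and 8.72 and 8.48 in B10 (-2.36 ± 0.16, 5.12-fold, adjusted p = 1.23e-05). Its call held in all 20 alternatives in which it was tested. Penk, the precursor of the enkephalin opioid peptides, read 8.56 and 8.71 in NOD and 11.15 and 9.69 in B10 (-1.79 ± 0.41, adjusted p = 0.0318). B10 replicate 2 was again the highest array, and the Penk call ended without B10 replicate 2 (-1.05), either NOD array at T1 (-1.71 and -1.86) or replicate 1 at T0 of either strain. Without B10 replicate 3 the Penk difference was -2.52. Saraf, which limits calcium entry through store-operated channels, read 9.02 and 8.68 in NOD and 10.67 and 10.79 in B10 (-1.88 ± 0.135, 3.67-fold, adjusted p = 1.87e-05), with its call kept in all 21 alternatives.

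Chemokines, the signals that draw in other leukocytes, had 4 of 21 measured list members lower in NOD and 0 higher. The median was -0.20, and 1.83% of all genes were called lower. Ccl5, made by memory and cytotoxic T cells, read 9.11 and 9.21 in NOD and 11.02 and 10.34 in B10 (-1.52 ± 0.23, adjusted p = 0.00411). Xcl1, lymphotactin, read 9.58 and 9.56 in NOD and 11.01 and 10.49 in B10 (-1.18 ± 0.16, adjusted p = 0.00215). The calls of Ccl5 and Xcl1 held when any single array was left out, but ended with erythroid markers as a covariate (Ccl5 -0.94, adjusted p = 0.0898, and Xcl1 -0.90, adjusted p = 0.076). The differences of Ccl1 (-0.80, adjusted p = 0.033) and Ccl22 (-0.65, adjusted p = 0.0232), 2 ligands of type 2 and regulatory T cells, were smaller. Both lost the call without B10 replicate 2 (-0.63 and -0.46) or NOD replicate 2 (-0.61 and -0.60), and Ccl22 also without NOD replicate 3 (-0.70). The count of 4 was 0 with the erythroid covariate, 2 without B10 replicate 2 or NOD replicate 2, 6 without B10 replicate 3 at T1, and 8 without both B10 arrays of replicate 3. Cxcl2, a neutrophil chemokine outside the list, read 7.68 and 8.35 in NOD and 10.25 and 9.51 in B10 (-1.86 ± 0.36, adjusted p = 0.0153), and lost its call without B10 replicate 2 (-1.49) or NOD replicate 2 (-1.53). Ccl3 and Ccl4 gave 0.07 (adjusted p = 0.894) and 0.13 (adjusted p = 0.835). Cxcl2, Arg1 and the lectin receptors Clec7a and Olr1 are also made by myeloid cells. Of 11 monocyte and macrophage markers 1 was called, Vcam1, which was higher in NOD (1.09, adjusted p = 0.00447), and the mean of the markers was 6.59 and 6.75 in B10 and 6.97 and 7.33 in NOD. For neutrophils 0 of 10 markers were called (5.40 and 5.41 in B10, 5.46 and 5.66 in NOD), and for dendritic cells 0 of 8 (5.57 and 5.53 against 5.66 and 5.64). Positive values were seen for 9 of the 11 monocyte and macrophage markers (median 0.58) and 8 of the 10 neutrophil markers (median 0.11). At T0, 8 of the 11 (median 0.89) and 4 of the 10 (median 0.37) were called higher in NOD, and 0 lower. Of all genes, 5.79% were called at T0. The part of myeloid cells in the differences above was not tested.

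Surface molecules that tune T cell activation split by gene. Of 27 costimulatory and inhibitory molecules, 2 were higher and 6 lower in NOD, with a median of -0.30. Of all genes, 1.77% were called higher and 1.83% lower. Cd160, a receptor that binds HVEM, read 5.57 and 5.56 in NOD and 8.02 and 7.21 in B10 (-2.05 ± 0.21, 4.15-fold, adjusted p = 0.000261). Crtam, an adhesion molecule of activated T cells with cytotoxic features, read 7.31 and 7.22 in NOD and 8.52 and 8.03 in B10 (-1.01 ± 0.16, adjusted p = 0.00489). Both calls held without any single array.

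Icos, the costimulator of follicular and type 2 helper cells, read 10.07 and 10.27 in NOD and 11.27 and 10.93 in B10 (-0.93 ± 0.15, adjusted p = 0.00587), and lost its call without B10 replicate 2 (-0.76). Tnfrsf9 (4-1BB) had a difference of -1.03 (adjusted p = 0.0331), Tnfsf14 (LIGHT) of -0.77 (adjusted p = 0.00825) and Fasl, the death ligand, of -0.61 (adjusted p = 0.0223). These 3 lost the call without B10 replicate 2 (-0.76, -0.63 and -0.48) or NOD replicate 3 (-1.10, -0.71 and -0.51), and Tnfrsf9 also without NOD replicate 2 (-0.97) or replicate 1 at T0 of either strain. In the other direction, Havcr1 (TIM-1), a costimulator of T cells, read 7.86 and 7.77 in NOD and 6.55 and 6.31 in B10 (1.39 ± 0.135, 2.62-fold, adjusted p = 0.000184), with its call kept in all 21 alternatives. Tnfrsf18 (GITR) was higher by 0.68 (adjusted p = 0.0374), a call that ended under 6 of 10 single omissions, those of each stimulated array (0.55 to 0.82) and of NOD replicates 1 and 3 at T0. Cd28, Cd40lg, Ctla4 and Pdcd1 were not called (adjusted p from 0.11 to 0.55). The count of 6 lower genes was 2 without B10 replicate 2, 3 without NOD replicate 3, and 1 with only the 4 stimulated arrays.

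The cytotoxic list holds genes of killer lymphocytes that a minority of CD4 cells share. It had 6 of 16 measured members lower and 0 higher, against 1.83% and 1.77% of all genes, with a median of -0.54. Klrc1 (NKG2A), an inhibitory lectin receptor, read 5.49 and 5.37 in NOD and 7.56 and 7.21 in B10 (-1.96 ± 0.19, 3.89-fold, adjusted p = 0.00015), and its call held in all 21 alternatives. The others were Ccl5 and Fasl, given above, Klrk1 (NKG2D, -0.77, adjusted p = 0.0102), Ctsw (a protease, -0.67, adjusted p = 0.00473) and Klrg1 (-0.61, adjusted p = 0.0381). Klrk1 lost its call without B10 replicate 2 (-0.75) or NOD replicate 3 (-0.69), Ctsw without B10 replicate 2 (-0.61), and Klrg1 under 7 of 10 single omissions (-0.68 to -0.46). Perforin (Prf1) gave 0.11 and granzyme B (Gzmb) -0.56, neither called (adjusted p = 0.73 and 0.17). Without B10 replicate 2 the count was 2, without NOD replicate 3 it was 3, without B10 replicate 3 it was 8, and with the erythroid covariate it was 1. Of 8 NK cell markers 0 were called (mean 5.56 and 5.51 in B10, 5.28 and 5.32 in NOD, 6 of 8 with negative differences), and of 2 CD8 markers 0 (6.85 and 6.81 in B10, 6.94 and 6.75 in NOD). At T0, 4 of the 8 NK markers (median -0.51), 1 of the 2 CD8 markers and 8 of the 16 cytotoxic genes were called lower in NOD. In each of these groups 0 were called higher at T0, and 5.79% of all genes were called there. The part of NK and CD8 cells in the cytotoxic differences was not tested.

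PYHIN genes, interferon-inducible sensors of DNA on chromosome 1, were lower in NOD. Of 10 measured members 7 were called lower and 0 higher, against 1.83% and 1.77% of all genes. The median difference was -1.16. Ifi214 read 6.65 and 5.75 in NOD and 8.34 and 8.84 in B10 (-2.40 ± 0.23, 5.27-fold, adjusted p = 0.000184). Ifi209 read 7.34 and 6.44 in NOD and 8.95 and 8.94 in B10 (-2.06 ± 0.21, 4.16-fold, adjusted p = 0.000261). Ifi202b, known from studies of lupus-prone mice, read 7.33 and 7.42 in NOD and 8.45 and 8.59 in B10 (-1.14 ± 0.11, adjusted p = 0.000198). These 3 calls held in every alternative in which the gene was tested.

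Ifi206 had a difference of -1.51 (adjusted p = 0.00437), Ifi205 of -1.76 (adjusted p = 0.00962), Ifi213 of -1.17 (adjusted p = 0.0217) and Ifi203 of -0.65 (adjusted p = 0.0433). Without B10 replicate 2 the calls of Ifi205 (-1.24), Ifi213 (-0.96) and Ifi203 (-0.51) ended, and without NOD replicate 3 those of Ifi213 (-0.89) and Ifi203 (-0.67). Ifi203 lost its call under 7 of 10 single omissions (-0.67 to -0.51). Ifi207 (-0.83) and Ifi208 (-1.07) were not called (adjusted p = 0.14 and 0.058). Aim2, the inflammasome sensor of the family, had the only positive value (0.55, adjusted p = 0.16). The count of 7 was 4 without B10 replicate 2, 4 with only the 4 stimulated arrays, and 3 with erythroid markers as a covariate. Members of the family are close copies, and probes can read more than 1 of them.

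Interferon-stimulated genes as a wider list did not share this direction. Of 29 measured, 4 were higher in NOD and 0 lower, the median was 0.30, and 22 had positive values. Of all genes, 1.77% were called higher. Rsad2 (viperin), which blocks virus replication, read 10.09 and 10.72 in NOD and 7.35 and 9.07 in B10 (2.20 ± 0.515, 4.59-fold, adjusted p = 0.0356). Isg20, an RNA exonuclease, read 9.81 and 10.07 in NOD and 7.80 and 8.81 in B10 (1.63 ± 0.30, adjusted p = 0.0115). For both genes B10 replicate 2 was the low array, as it was for the erythroid markers. Irf9, a subunit of the interferon-activated factor ISGF3, was higher by 0.70 (adjusted p = 0.0329) and Oas3, an antiviral RNA sensor, by 0.68 (adjusted p = 0.0173). None of the 4 was called without B10 replicate 2 (1.34, 1.13, 0.56 and 0.69) or without NOD replicate 3 (1.89, 1.51, 0.57 and 0.60), and 0 of the list were called in either of these fits. Oas3 was also not called without B10 replicate 3 (0.67), nor Irf9 without NOD replicate 1 at T0 (0.70). Rsad2 was also not called without NOD replicate 2 (2.51, adjusted p = 0.0518) or NOD replicate 1 at T0 (2.20, adjusted p = 0.0594), and was 3.06 without B10 replicate 3. Without NOD replicate 2 the count was 8. Ifit1 (1.20, adjusted p = 0.162) and Parp14 (0.80, adjusted p = 0.0684) were not called, and Ifih1, a sensor of viral RNA, had the lowest value (-0.85, adjusted p = 0.085).

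Among genes that restrict retroviruses, 2 of 11 measured were lower in NOD, against 1.83% of all genes. Trim12a, a relative of TRIM5 on chromosome 7, read 4.06 and 3.59 in NOD and 7.78 and 7.73 in B10. This difference of -3.93 ± 0.17 (15.2-fold, adjusted p = 1.46e-07) was the most negative of the named genes. The NOD mean lay near the low end of the arrays, with 6.09% of all genes lower, so the fold may understate the true one. No probe was left out for sequence differences between the strains, and their part in this low reading was not tested. Its neighbours in the family, Trim12c (-0.43, adjusted p = 0.16) and Trim30a (-0.01, adjusted p = 0.99), were not called. Apobec3, a cytidine deaminase that mutates retroviral DNA, read 6.12 and 5.84 in NOD and 7.23 and 7.26 in B10 (-1.27 ± 0.15, 2.41-fold, adjusted p = 0.000744). A second Apobec3 probe set gave 0.21, so the probe sets of this gene disagreed in direction. Both calls held in all 21 alternatives.

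Several of the most negative differences belonged to transporters and enzymes. Slc15a2, which imports short peptides, read 5.47 and 5.40 in NOD and 8.16 and 7.61 in B10 (-2.45 ± 0.26, 5.46-fold, adjusted p = 0.000321). Abcb1b, a drug efflux pump, read 5.29 and 5.06 in NOD and 7.66 and 7.52 in B10 (-2.41 ± 0.19, 5.33-fold, adjusted p = 3.24e-05). Slc28a2b, of the nucleoside transporter family, read 6.13 and 5.24 in NOD and 7.75 and 8.06 in B10 (-2.22 ± 0.25, adjusted p = 0.000454). Pdk1, a kinase that holds pyruvate back from the mitochondria, read 5.79 and 6.004 in NOD and 7.76 and 7.85 in B10 (-1.91 ± 0.16, 3.75-fold, adjusted p = 6.81e-05). All 4 kept the call in all 21 alternatives and were also lower in NOD at T0 (-3.37, -2.89, -2.75 and -2.51). Of the 15 most negative named genes, 12 kept the call in all alternatives in which they were tested, and Il5, Cxcl2 and Penk did not.

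Like the lower genes, the genes higher in NOD fell into a part that held in all alternatives and a larger part that did not. Nts, the precursor of the peptide neurotensin, read 6.57 and 6.09 in NOD and 3.84 and 3.67 in B10 (2.57 ± 0.17, 5.95-fold, adjusted p = 1.06e-05). Dhrs3, an enzyme that reduces retinaldehyde to retinol, read 9.23 and 9.49 in NOD and 7.30 and 6.88 in B10 (2.27 ± 0.155, 4.82-fold, adjusted p = 1.23e-05). Ccnb1ip1, a ubiquitin ligase known from meiosis, read 7.46 and 7.30 in NOD and 5.34 and 5.14 in B10 (2.14 ± 0.16, 4.41-fold, adjusted p = 2.84e-05). In these 3 genes the 2 B10 arrays lay close together, far below the NOD arrays. For Nts the B10 mean lay near the low end of the arrays, with 5.94% of all genes lower. There the closeness of the B10 arrays says little, and the fold may understate the true one. Cln8, an endoplasmic reticulum protein, read 9.03 and 9.46 in NOD and 6.71 and 7.57 in B10 (2.11 ± 0.28, adjusted p = 0.00184). Zfp979, a zinc finger gene, read 5.67 and 4.88 in NOD and 3.24 and 3.13 in B10 (2.09 ± 0.21, adjusted p = 0.000239). Its B10 mean also lay near the low end, with 1.64% of all genes lower. These 5 were the ones of the 15 most positive named genes that kept the call in all alternatives in which they were tested.

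The other 10 included red cell genes and moved with the gap between the B10 arrays. Rhd, the Rh blood group antigen, read 9.26 and 9.99 in NOD and 5.37 and 7.38 in B10 (3.25 ± 0.735, 9.49-fold, adjusted p = 0.0305). Car1, a carbonic anhydrase of red cells, read 9.07 and 10.34 in NOD and 7.05 and 7.76 in B10 (2.30 ± 0.50, adjusted p = 0.0244). Fech, the last enzyme of haem synthesis, read 9.11 and 9.24 in NOD and 6.02 and 7.83 in B10 (2.25 ± 0.505, adjusted p = 0.0294). In each, B10 replicate 2 was the lowest array. Gda (2.38), Slc6a9 (2.08), Ube2l6 (2.03), Tmcc2 (1.95), Ehd3 (1.92) and Neil3 (1.91), with Rsad2, complete the 10. Without B10 replicate 2 none of the 10 was called (differences from 1.18 to 2.24). Without NOD replicate 3 the calls of 9 ended (1.46 to 2.88), without NOD replicate 2 those of 6 (1.94 to 3.61), without NOD replicate 1 at T0 those of 5, and without B10 replicate 1 at T0 those of 3. Without B10 replicate 3 Rhd was at 4.25, with the gap between the B10 arrays out of the spread. With the mean of Alas2, Klf1 and Car2 as a covariate all 10 ended, at 0.54 to 1.06.

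All 8 measured erythroid markers had positive differences, with a median of 2.14, but Rhd alone was called in the fit reported here. With the replicate number as a fixed block in the fit, all 8 were called. Leaving out either B10 array at T1 took the gap between them out of the spread. Rhd was at 4.25 without replicate 3 and at 2.24 without replicate 2. Alas2, the red cell enzyme that starts haem synthesis, read 11.64 and 11.68 in NOD and 8.76 and 10.48 in B10 (2.04, adjusted p = 0.0769). Klf1, the erythroid master factor, read 8.08 and 8.70 in NOD and 6.15 and 7.43 in B10 (1.598, adjusted p = 0.0541). Slc4a1, the anion exchanger band 3, read 11.28 and 11.82 in NOD and 7.81 and 10.56 in B10 (2.36, adjusted p = 0.176). The NOD arrays lay above both B10 arrays in each. At T0 the marker means were 7.70, 6.68 and 9.10 in B10 and 10.31, 9.90 and 10.62 in NOD, so the strains did not overlap there either. All 8 markers were called higher in NOD at T0 (median 2.59), where 5.79% of all genes were called. B10 replicate 3 exceeded replicate 2 by 0.5 or more in 88 of the 135 genes called at least 2-fold higher in NOD (65.2%), in 2 of the 72 called at least 2-fold lower (2.78%) and in 2.22% of all genes. How far the erythroid level moves the higher calls was not tested apart from the covariate fit, in which 5 of the 8 markers had negative values, from -0.52 for Slc4a1 to -0.08 for Ermap, none called, and 45 of the 353 higher and 72 of the 365 lower calls remained. That covariate is the mean of Alas2, Klf1 and Car2, which are among these 8 markers. Their differences in that fit cancel out by design, so the marker values there are no separate check. The covariate itself differed between the strains.

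**Figure D3:**
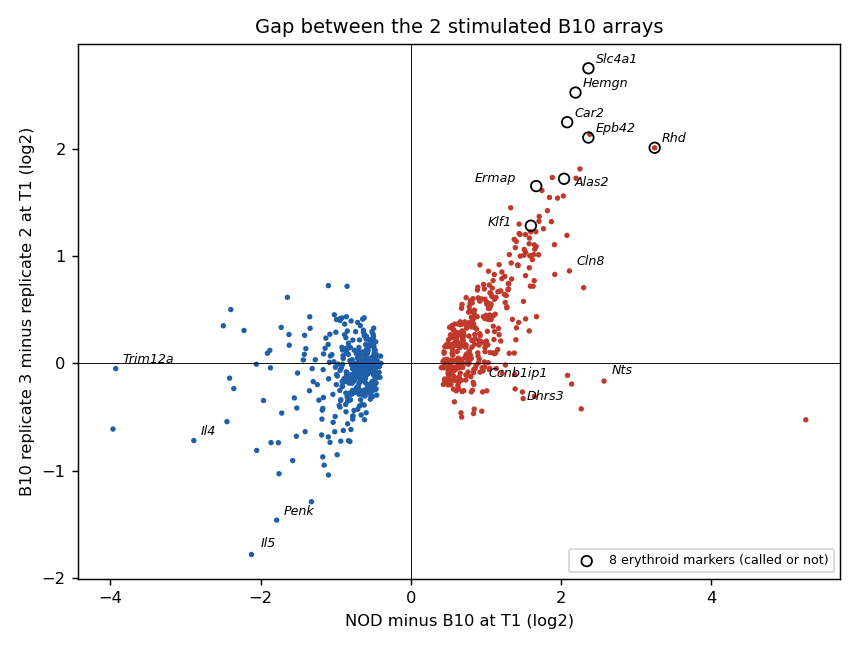
For each called gene (red higher, blue lower in NOD) the x axis gives the NOD minus B10 difference at T1 and the y axis the difference between the 2 stimulated B10 arrays (replicate 3 minus replicate 2), both in log2. Circles mark 8 erythroid markers, which have gaps with a median of 2.05. Nts, Dhrs3 and Ccnb1ip1 lie a little under 0 on the y axis, and Il5 and Penk are lowest.

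Cell cycle genes had the highest median of the 25 gene lists, with few calls in the fit reported here. With the replicate number as a fixed block in the fit, 12 of the 23 measured genes were called higher. Of 23 measured, 21 had positive values with a median of 0.65, and 1 was called, E2f2, a factor that drives entry into DNA replication (1.28 ± 0.25, adjusted p = 0.0169). E2f2 read 8.44 and 8.61 in NOD and 6.99 and 7.50 in B10, and lost its call without B10 replicate 2 (1.02) or NOD replicate 3 (1.19). Mki67, the proliferation marker, read 10.35 and 11.10 in NOD and 7.67 and 9.77 in B10 (2.01, adjusted p = 0.0797). Ccna2 (1.39, adjusted p = 0.0725) and Ccnb2 (1.35, adjusted p = 0.0576) were also not called, and Pcna gave 0.00. Without NOD replicate 2 the count was 11, without B10 replicate 3 it was 4, and without B10 replicate 2 or NOD replicate 3 it was 0. The gap between the B10 arrays had a median of 0.17 over this list and was 0.5 or more in 6 of its genes (26.1%). Between the NOD arrays (replicate 3 minus replicate 2) the median gap was larger, 0.605. Over all genes these medians were -0.01 in B10 and 0.03 in NOD. The part of red cell precursors in these values was not tested.

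Several lists of T cell signalling and survival held few calls, from 0% to 4.8% of their members, against 3.6% of all genes. Immediate transcription factors, which include Fos, Jun, Egr1, Nr4a1, Myc and Nfkb2, had 0 of 25 called (median -0.11), with values from -0.58 to 0.19. The lowest were Nr4a2 (-0.58, adjusted p = 0.083) and Egr1 (-0.48, adjusted p = 0.083). T cell receptor signalling had 1 of 21, Malt1, a protease that links the receptor to NF-kB (0.57, adjusted p = 0.0214). Its call ended without any 1 of the 4 stimulated arrays (0.51 to 0.63). Negative feedback regulators had 1 of 30, Rgs2 (-0.47, adjusted p = 0.0428), which lost its call in 9 of 10 single omissions (-0.56 to -0.37). Naive T cell genes had 0 of 18 and the BCL2 family 0 of 16.

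Regulatory T cell genes had 3 of 15 called (20%, against 3.6% of all genes). These were Tnfrsf18, Gpr83, an orphan receptor (0.67, adjusted p = 0.0253), and Nt5e (CD73), which makes adenosine (-1.19, adjusted p = 0.0454). Gpr83 lost its call without B10 replicate 3 (0.44) or NOD replicate 3 (0.62), and Nt5e under 7 of 10 single omissions (-1.36 to -0.85). Cytokine receptor chains had 1 of 22, Ifnar2, a chain of the type I interferon receptor (0.48, adjusted p = 0.0281), lost without B10 replicate 2 (0.41) or NOD replicate 3 (0.43). SLAM family genes had 1 of 11 (9.1%), Cd84 (-0.90, adjusted p = 0.0159), lost without B10 replicate 2 (-0.59) or NOD replicate 3 (-0.89). Of 14 candidate genes for diabetes in NOD mice, Tnfrsf9 alone was called, and Il2, Il21, Ctla4 and Ptpn22 (-0.24, adjusted p = 0.30) were not.

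The GIMAP genes, GTPases that keep lymphocytes alive, had 3 of 8 lower: Gimap7 (-0.69, adjusted p = 0.0213), Gimap1 (-0.61, adjusted p = 0.0125) and Gimap3 (-0.62, adjusted p = 0.0434). The median of the family was -0.40, and 1.83% of all genes were called lower. None of the 3 was called without B10 replicate 2 (-0.65, -0.59 and -0.35) or NOD replicate 3 (-0.47, -0.45 and -0.52). Gimap7 was also not called without B10 replicate 3 (-0.73), and Gimap3 under 9 of 10 single omissions (-0.72 to -0.35). In antigen presentation 2 of 20 were lower, H2-T10 (-0.71, adjusted p = 0.0272) and H2-Ea (-0.64, adjusted p = 0.0322). H2-T10 lost its call without B10 replicate 2 (-0.49) or NOD replicate 3 (-0.59), and H2-Ea under 5 of 10 single omissions (-0.70 to -0.40). H2-Ea, the alpha chain of the class II molecule I-E, which ordinary NOD mice do not express, read 9.89 and 10.36 in these NODk samples and 10.83 and 10.70 in B10. Class II molecules come from B cells and other presenting cells. Of 8 B cell markers 1 was called, Cd79a, lower in NOD (-0.94, adjusted p = 0.00587, not called without B10 replicate 2 at -0.76 or NOD replicate 3 at -0.77), and their mean was 7.18 and 7.12 in B10 and 6.90 and 7.04 in NOD.

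In metabolism, Pfkp, a phosphofructokinase of glycolysis, was the called gene of 16 (9.36 and 9.06 in NOD, 10.39 and 10.10 in B10, -1.04 ± 0.13, adjusted p = 0.00128). Its call held when any single array was left out. Amino acid synthesis genes had Chac1 higher (0.63, adjusted p = 0.0291) and Phgdh lower (-0.77, adjusted p = 0.0289) of 16, ribosome biogenesis had Pes1 higher (0.60, adjusted p = 0.0112) of 22, and heat shock genes had Hspa1a lower (-0.90, adjusted p = 0.0102) of 11. All 4 lost the call without B10 replicate 2 (0.70, -0.53, 0.63 and -0.94). Chac1, Phgdh and Pes1 also lost it without NOD replicate 3 (0.41, -0.87 and 0.57), Chac1 without B10 replicate 3 (0.57) and Phgdh without NOD replicate 2 (-0.68). Cholesterol synthesis had 0 of 15 called. Called shares were 6.25% for glycolysis, 12.5% for amino acid synthesis, 4.5% for ribosome biogenesis and 9.1% for heat shock genes. Of all genes, 3.6% were called.

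**Figure D4:**
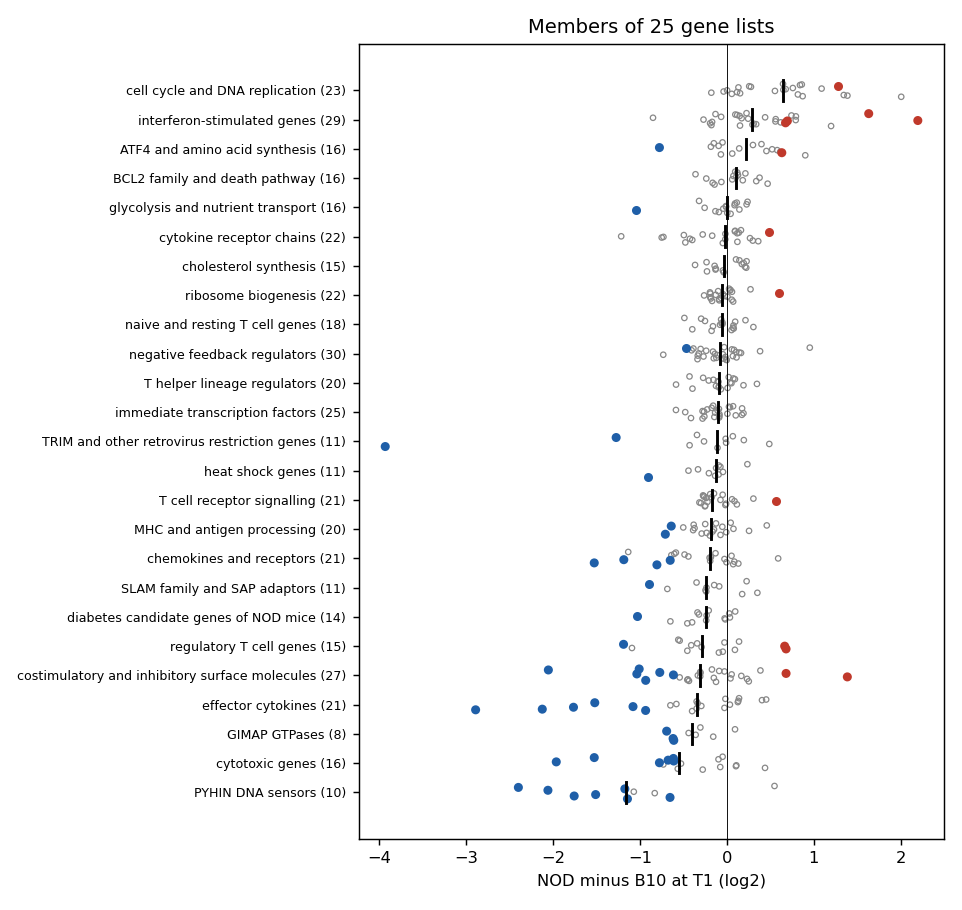
The x axis gives the NOD minus B10 difference at T1 (log2) for each measured member of 25 gene lists, whose sizes are in brackets. Filled points are called (red higher, blue lower), open points are not, and black bars are the medians, which run from -1.16 for the PYHIN genes to 0.65 for the cell cycle genes.

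Strain differences before stimulation overlapped with those after it. Of 1155 genes called at T0 (5.79%), 361 were also called at T1, which is 31.3% of the T0 calls and 50.3% of the T1 calls. The direction was the same for 356 of the 361 and opposite for 5. The opposite ones, named after their values were seen, were Ifi202b, Lgals9, Bdh1, the immunoglobulin segment Ighg3 and the clone 1110059E24Rik. The T1 calls of Lgals9, Bdh1 and the clone ended under 4, 8 and 2 of the 10 single omissions (0.41 to 0.59, 0.40 to 0.46 and -0.534 to -0.526), and that of Ighg3 without B10 replicate 3 (-0.62). The T0 count was 642 without B10 replicate 1 or 2 at T0, 599 without NOD replicate 1 and 571 without NOD replicate 3 at T0. Of the 357 genes called at T1 and not at T0, 292 had the same sign at T0. A miss of the threshold at T0 does not show that a gene was equal there, so the difference between states was tested as the interaction of strain and state. It was called for 49 genes (0.246%), 35 of which were also called at T1. The interaction count was between 13 and 32 without any 1 of 8 arrays, that is all but B10 replicate 3 and NOD replicate 2 at T1.

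Among those 35, the cytokine genes stood on the negative side. Il4 differed by -1.01 at T0 and -2.89 at T1 (interaction -1.88, adjusted p = 0.0216). It rose by 2.08 with stimulation in B10 and had a value of 0.20 in NOD. Il13 had no called difference at T0 (-0.06) and -1.76 at T1 (interaction -1.70, adjusted p = 0.0307). Csf2 went from -0.18 to -1.52 (interaction -1.34, adjusted p = 0.0175). The interaction calls of these 3 ended under 7, 8 and 5 of the 10 single omissions (-2.05 to -1.52, -1.91 to -1.32 and -1.36 to -1.13), B10 replicate 2 and NOD replicate 3 at T1 among them for each gene. For Il5 the interaction was -2.05 and was not called (adjusted p = 0.137).

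Arg1 and Ifi202b also had negative interactions. Arg1 differed by -0.23 at T0 and -2.36 at T1 (interaction -2.12, adjusted p = 0.00103). Ifi202b read 3.96, 3.85 and 3.90 in B10 and 4.98, 4.95 and 5.17 in NOD at T0, so it was higher in NOD before stimulation (1.14) and lower after it (-1.14). Its interaction of -2.28 had an adjusted p of 3.36e-05, the lowest of all genes. The B10 arrays at T0 lay near the low end of the range, so the difference at T0 may be understated. Crtam went from 0.36 to -1.01 (interaction -1.37, adjusted p = 0.0175), and lost the interaction call without B10 replicate 2 or NOD replicate 3 at T1 or NOD replicate 1 at T0 (-1.34 to -1.12). The interactions of Arg1 and Ifi202b were called in all 19 alternatives in which they could be computed.

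On the positive side, Nts went from 0.17 at T0 to 2.57 at T1 (interaction 2.41, adjusted p = 0.000649) and Dhrs3 from 0.58 to 2.27 (interaction 1.69, adjusted p = 0.00721). Pmp22, a membrane protein best known from myelin, read 8.68 and 8.93 in NOD and 7.45 and 7.19 in B10 at T1 (1.48 ± 0.13, adjusted p = 9.68e-05) and differed by 0.13 at T0 (interaction 1.36, adjusted p = 0.00755). These 3 interactions were called in every alternative in which they could be computed. For Nts both strains lay near the low end of the arrays at T0, with 4.22% of all genes lower in B10 and 5.73% in NOD. Pttg1, securin, went from -0.36 to 1.05 (interaction 1.4, adjusted p = 0.0177), a call that ended under 5 of 10 single omissions (1.15 to 1.41). Lgals9, galectin 9, a ligand of TIM-3, went from -0.49 to 0.59 (interaction 1.07, adjusted p = 0.0246), with the interaction call ended under 7 of 10 omissions (0.90 to 1.11). Its own call at T1 ended under 4 of 10 (0.41 to 0.59), those of B10 replicate 2 and NOD replicate 3 at T1 and of replicate 1 at T0 in both strains. For Trim12a the difference was -5.65 at T0 and -3.93 at T1 (interaction 1.72, adjusted p = 0.00755). The B10 arrays read 9.64 to 9.96 at T0 and 7.73 to 7.78 at T1, and their mean fell by 1.997. The NOD arrays read 3.95 to 4.31 at T0 and 3.59 to 4.06 at T1, where 10.3% and 6.09% of all genes had lower means. No detection call was used here, and a fall below such levels could not be read, so whether the strains responded differently in this gene cannot be told from the interaction.

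**Figure D5:**
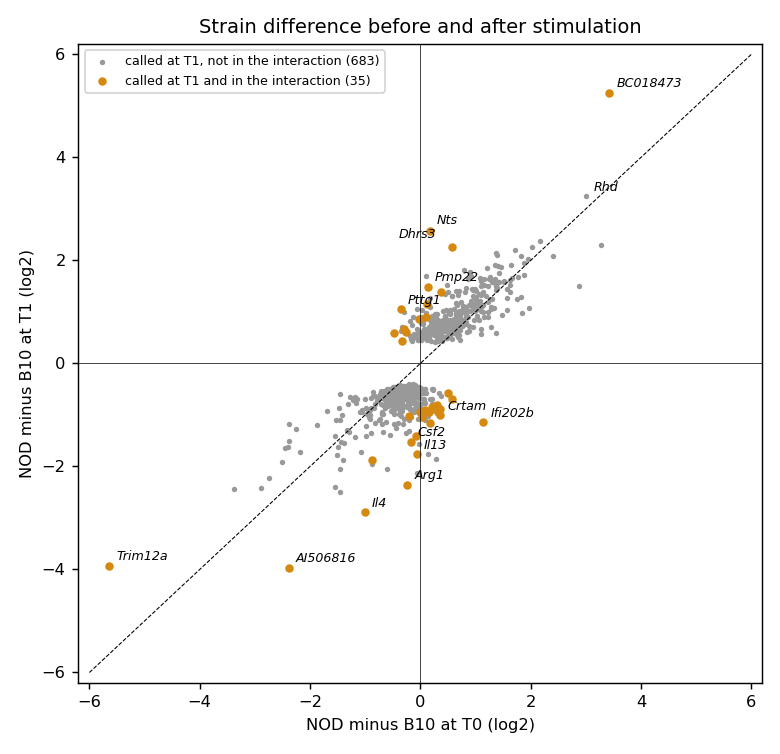
The NOD minus B10 difference (log2) at T0 (x axis) and at T1 (y axis) is shown for the 718 genes called at T1, with a dashed line where both are equal. Orange points are the 35 genes also called in the interaction, among them Ifi202b, on the right of 0 at T0 and below 0 at T1, and Nts, near 0 at T0 and at 2.57 at T1.

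Called genes were found on every chromosome except Y, where 9 genes were measured, with shares from 2.03% on chromosome X to 5.7% on chromosome 1. Neighbourhoods were defined as 10 measured genes in a row, in the gene order of RefSeq, of which at least 4 were called with a 1.5-fold difference. Overlapping stretches were joined. There were 6, holding 29 of the 547 placed genes that passed this fold (5.3%), and 2.76% of all placed genes passed it. The longest held the PYHIN genes, with 8 of 12 genes called, all lower in NOD except Ackr1, a chemokine-binding receptor of red cells (0.78, adjusted p = 0.0286, not called without either B10 array at T1 or NOD replicate 3, at 0.665 to 0.78). On chromosome 5, Abcb1b lay beside Abcb1a (-0.99, adjusted p = 0.00473), Rundc3b (-1.0, adjusted p = 0.00215) and Tmem243 (-1.03, adjusted p = 0.000308), all lower, and the calls of these 4 held when any single array was left out.

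On chromosome 6, Klrc1 and Klrk1 lay with Clec7a (dectin-1, a receptor of fungal glucan, -1.05 ± 0.135, adjusted p = 0.00128) and Olr1, a scavenger receptor (-1.10, adjusted p = 0.0244). Clec7a read 6.40 and 6.65 in NOD and 7.53 and 7.61 in B10, and its call held in all 21 alternatives. Olr1 lost its call without B10 replicate 2 (-0.58) or either NOD array at T1 (-1.09 and -1.11), and Klrk1 without B10 replicate 2 (-0.75) or NOD replicate 3 (-0.69). On chromosome 2, Slc28a2b lay with Slc28a2 and AA467197, both lower (-0.91 and -0.69), and Bloc1s6, a subunit of the complex that builds lysosome-related organelles, which was higher (7.88 and 7.47 in NOD, 6.64 and 6.65 in B10, 1.03 ± 0.145, adjusted p = 0.0024). The Bloc1s6 call held in all 21 alternatives. Slc28a2 (-0.97 to -0.59) and AA467197 (-0.69 to -0.52) each lost the call under 3 single omissions, among them B10 replicate 2 and NOD replicate 3. The neighbourhood of Xcl1 on chromosome 1 held both directions, with Sft2d2 (-0.68) and Tiprl (-0.78) lower and Dcaf6 (1.01) and Creg1 (1.07) higher. All 4 lost the call without B10 replicate 2 (-0.66, -0.73, 0.74 and 0.74), and all but Sft2d2 without NOD replicate 3 (-0.58, 0.94 and 1.02). Creg1 lost its call under 5 of 10 single omissions (0.74 to 1.11). The last neighbourhood was made of immunoglobulin kappa segments on chromosome 6.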

How the data were processed

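RNA was hybridised to Affymetrix Mouse Gene ST arrays, 1 array per sample, 10 in all. The authors deposited log2 values, made by robust multi-array averaging (RMA) with Affymetrix Power Tools per the submitters' processing notes, which name no version. The log base was taken from the range of the values. RMA subtracts background, quantile-normalizes the arrays and summarises probes into probe sets, so a change shared by most genes is removed. No probe was left out for sequence differences between the strains, so poorer probe binding in 1 strain cannot be told apart from less RNA. Of 35486 probe sets, 21789 had exactly 1 listed gene symbol, 1621 had several and 12076 none. The probe set with the highest mean stood for each of 19938 genes. Gene order and promoters came from RefSeq GRCm38.p6, and 91 gene identifiers had no match there.

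Group means over all 10 arrays were fitted with limma 3.58.1 in R 4.3.3 (lmFit and eBayes, 6 residual degrees of freedom). Contrasts were NOD minus B10 at T1 and at T0 and the difference between them, with Benjamini-Hochberg adjustment over all genes and a threshold of 0.05. The pipeline was tested on simulated data. Each group mean rests on 2 arrays at T1 and 3 at T0, whose number limits the precision. Named were the 15 largest differences in each direction among called genes whose arrays did not overlap, the 6 largest interactions in each direction among genes also called at T1, and members of the gene lists and neighbourhoods. Predicted genes and antigen receptor segments were outside that choice. The members and lists were chosen with earlier results of these data known.

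Alternatives were another scaling, a gene's probe sets averaged, all probe sets tested, brighter genes, eBayes with trend and robust options, arrays weighted by quality, a fit of the compared groups alone, the replicate number as a block, an erythroid covariate (the mean of Alas2, Klf1 and Car2) and omission of arrays.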

Additional observations from a re-analysis of the deposited data

Results flagged for a closer look

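The strain difference at T1 was set against that at T0 in the interaction term of the limma fit, and the genes given here passed its threshold (adjusted p under 0.05 over all 19938 genes). Groups of 2 and 3 arrays were too small for a test of single outlying arrays. Values are the difference at T1 minus that at T0, on the log2 scale.

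Positive interactions were 2.41 for Nts, 1.84 for the clone BC018473, 1.72 for Trim12a, 1.69 for Dhrs3, 1.4 for Pttg1, 1.36 for Pmp22, 1.07 for Lgals9, 0.968 for Oas3, 0.773 for Slamf1 and 0.755 for Bdh1. For Trim12a the NOD arrays lay near the low end of the range in both states, where a fall could not be read. Slamf1, a receptor that binds itself on neighbouring cells, differed by -0.60 at T0 and 0.18 at T1. Bdh1, a mitochondrial enzyme of ketone metabolism, went from -0.33 to 0.43.

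Negative interactions were -2.28 for Ifi202b, -2.12 for Arg1, -1.88 for Il4, -1.7 for Il13, -1.58 for the clone AI506816, -1.37 for Crtam, -1.34 for Csf2, -1.27 for the immunoglobulin constant segment Ighg3, -1.25 for Cd79a, -1.09 for Clec7a, -1.07 for the clone 1110059E24Rik, -1 for Saraf and -0.821 for Tmem243. Cd79a, a chain of the B cell receptor complex, went from 0.31 to -0.94, and Ighg3 from 0.58 to -0.69.

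Calls of 8 of these 23 genes held in every alternative in which they could be computed: Nts, Dhrs3, Trim12a, Pmp22, BC018473, Arg1, Ifi202b and Ighg3. Slamf1 and Bdh1 were at the other end, with the call lost under each of the 10 single omissions (0.721 to 0.826 and 0.707 to 0.782). Saraf lost it under 8 (-1.06 to -0.837), Clec7a under 8 (-1.13 to -0.962), Tmem243 under 9 (-0.865 to -0.711), Oas3 under 9 (0.852 to 1.05), Cd79a under 7 (-1.29 to -1.07) and AI506816 under 3 (-1.53 to -1.27). For 1110059E24Rik it was lost without B10 replicate 2 or NOD replicate 3 at T1 (-1.04 to -1.03).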

How the results depend on the processing

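Of the 718 calls at T1, 82 held in all 21 alternatives, 32 of the higher genes (9.07%) and 50 of the lower (13.7%). Without a single array the count of calls lay between 184 and 889, of higher genes between 65 and 405, of lower genes between 119 and 484, and of those with at least a 2-fold difference between 91 and 357. At T0 it lay between 571 and 1306, and for the interaction between 13 and 69. With array weights the counts were 292 at T1 (123 higher, 169 lower, 124 at least 2-fold), 2316 at T0 and 31 in the interaction. With only the 4 stimulated arrays they were 128 at T1 (58 higher, 70 lower, 93 at least 2-fold). With the erythroid covariate they were 128 at T1 (53 higher, 75 lower, 84 at least 2-fold), 136 at T0 and 80 in the interaction. Trend and robust settings gave 130 genes at least 2-fold and 102 interactions. Leaving out both B10 arrays of replicate 3 gave 421 higher genes and 372 genes at least 2-fold. Shifting every array to the same 75th percentile moved the median of all genes to 0.05, and gave 666 calls, 59.6% of them higher against 49.2%, with 31 interactions. The cause of these shifts was not tested, beyond the fewer arrays in the fits that leave arrays out.

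With the replicate number as a fixed block, 923 genes were called, 561 of them higher (60.8%), and with it as a random block 755. With the fixed block all 8 erythroid markers and 12 of 23 cell cycle genes were called higher. The numbers were not taken as pairing the samples, but the values do not settle this. Deviations of same-numbered arrays had correlations of 0.41 and 0.40 within B10 across the states, and -0.01 and 0.22 within NOD. Between strains at T1 they had -0.04. Deviations of 2 arrays mirror each other, so the values at T1 are not separate checks. The erythroid means of replicates 2 and 3 were 6.68 and 9.10 in B10 at T0 and 7.08 and 9.12 at T1. In NOD they were 9.90 and 10.62 at T0 and 10.03 and 10.56 at T1. For 135 genes followed through the alternatives, of which 104 were called, 2259 values kept their direction and side of the threshold, 58 passed it, 472 no longer did, and 23 values of 11 genes turned direction. Of these 23, 0 were called in either fit. With the erythroid covariate, of which Car2 is a part, they were 1.15 for Il10, 0.925 for Il21, -0.452 for Car2, -0.516 for Slc4a1, -0.101 for Epb42, -0.494 for Hemgn, -0.0808 for Ermap, -0.106 for Pcna and 0.291 for Ctla4. With the shared 75th percentile Il10 was at 0.0174. When arrays were left out, Il10 ran from -0.794 to 0.743, Il21 from -1.66 to 0.363, Pcna from -0.135 to 0.145, Ccl3 from -0.0841 to 0.233, Ccl4 from -0.107 to 0.375 and Ctla4 from -0.994 to 0.0876.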

Other observations

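A pair of clone genes outside the naming rule had the most extreme differences, and are given here after their values were seen. BC018473 read 10.41 and 10.77 in NOD and 5.59 and 5.07 in B10 (5.26, 38.3-fold higher, adjusted p = 2.29e-08 by limma), and AI506816 read 5.38 and 5.06 in NOD and 9.49 and 8.87 in B10 (-3.96, 15.6-fold lower). Both were also different at T0, by 3.42 and -2.39.

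Segments of antigen receptors, which B and T cells join when they build their receptors, were called as well, 7 lower and 1 higher in NOD. A kappa variable segment of family 9 read 5.81 and 5.05 in NOD and 7.75 and 8.10 in B10 (-2.50, adjusted p = 0.000127 by limma, and -1.46 at T0). The alpha chain segments Trav7n-5 (-1.64), Trav14-1 (-1.62) and Trav19 (-0.59) were lower, as were Igkv4-91 (-1.43), Igkv8-30 (-1.10) and Ighg3 (-0.69). Igkv19-93 was higher (1.6), while another probe set of it gave -0.54, so its probe sets disagreed. Segments of 1 family are close copies, and probes can read more than 1 of them. Trav14-1 lost its call without either B10 array (-1.70 and -1.53) or NOD replicate 3 (-1.11), and Trav19 under 4 of 10 single omissions (-0.62 to -0.39). Igkv8-30 lost it without NOD replicate 3 (-1.02), Ighg3 without B10 replicate 3 (-0.62), and Igkv19-93 without B10 replicate 2 (0.98), NOD replicate 2 (1.33) or NOD replicate 3 (1.86).

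Of the 12076 probe sets without a listed gene, 200 were called (1.66%), 73 of them higher in NOD, against 1.75% of all probe sets when every probe set was tested. Among called genes 48 had several probe sets, and 55 of their 82 other probe sets had the same direction.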
